A study of Mus musculus with 18 samples.

Results

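Purkinje cells that translate an Fmr1 transcript with an expanded CGG repeat were profiled at 4, 8 and 12 weeks of age, and the age comparison within these mice is described here. The members are the 3 libraries titled CGG90Fmr1 12weeks and the 3 titled CGG90Fmr1 4weeks, 6 of the 18 libraries of the series, chosen from their titles alone. The remaining libraries are CGG90Fmr1 at 8 weeks and wild type at 4, 8 and 12 weeks, with 3 libraries in each group. Both CGG90 groups came from L7CGG90Fmr1:Pcp2 BAC mice, which carry L7CGG90Fmr1 and the L7/Pcp2eEGFPL10a BAC and are hemizygous for each. The wild-type groups carried the L7/Pcp2eEGFPL10a BAC as well, so the tagged ribosomal protein was common to all groups. All mice were F1 animals of a C57B6 parent with L7CGG90Fmr1 and an FVB parent homozygous for the BAC. Each library pooled the cerebella of 2 male and 2 female mice according to the labels, so the spread between libraries is a spread between pools. The series has no transgene with a short repeat, so the repeat, the added Fmr1 and the site of insertion cannot be told apart in any comparison of genotypes.

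Purkinje cells are the only output neurons of the cerebellar cortex, and their large dendrites are still being refined in juvenile mice. The L7 (Pcp2) promoter drives both transgenes in these cells. CGG repeats of premutation length in FMR1 are the cause of the fragile X-associated tremor/ataxia syndrome, in which Purkinje cells are lost. The repeat RNA binds proteins such as Pur-alpha, hnRNP A2/B1 and Sam68, and ubiquitin-positive inclusions that hold proteasome and heat shock proteins form in neurons. In the translating ribosome affinity purification used here, ribosomes that carry the tagged L10a protein are pulled down from whole cerebellum and the RNA bound to them is measured, so RNA of other cells can remain as background. Fewer cells of a type and less ribosome-bound RNA per cell cannot be told apart in such pooled material.

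In the libraries labelled CGG90 12 weeks replicates 1 and 2, Fmr1 was as low as in wild type, which goes against their labels. The brightest of the 3 Fmr1 probe sets read log2 7.10, 6.03 and 12.01 in the 12-week CGG90 replicates 1, 2 and 3, against 11.66, 11.52 and 11.72 in the 4-week CGG90 libraries. The same probe set read 11.01, 11.66 and 11.90 in the 8-week CGG90 libraries and 7.63, 8.39 and 7.78 in wild type at 12 weeks. The values of replicates 1 and 2 lay below all 3 wild-type libraries of their age, and only replicate 3 stood with the 4-week and 8-week CGG90 libraries. The mean difference, 12 minus 4 weeks, was -3.25 ± 1.11 (log2, n = 3 and 3). Here and below, ± gives the SE of the limma fit, whose spread is pooled over the 6 groups. The SD of this probe set was 3.19 at 12 weeks and 0.1 at 4 weeks in CGG90, so the pooled SE describes it poorly. An exact two-sided permutation test gave a p of 0.4 (0.6 after Benjamini-Hochberg adjustment over the 3 probe sets). Its 20 arrangements allow no p below 0.1. limma, fitted over all genes, gave an adjusted p of 0.584 for this probe set.

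On the second Fmr1 probe set replicates 1 and 2 were again below replicate 3 and the 4-week CGG90 libraries. It read 6.82, 5.06 and 9.88 at 12 weeks and 9.73, 9.17 and 9.16 at 4 weeks, a difference of -2.10 (exact permutation p = 0.4, adjusted 0.6). Wild type at 12 weeks read 4.87, 6.31 and 6.42 on it, so that replicate 1 was above these libraries and replicate 2 among them. The dimmest probe set did not separate genotypes in any group and read 6.28, 5.36 and 6.60 against 5.80, 6.08 and 6.83, a difference of -0.16 (exact permutation p = 0.8, adjusted 0.8). Replicates 1 and 2 were immunoprecipitated on the same day as each other and as wild-type 12-week replicate 1 and CGG90 8-week replicate 1, and replicate 3 on another day. Every age comparison below therefore mixes libraries with and without high transgene-type Fmr1 at 12 weeks, and values for replicate 3 alone, or for replicates 1 and 2 together, are given beside the counts over all genes, most lists and the main genes.

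**Figure D1:**
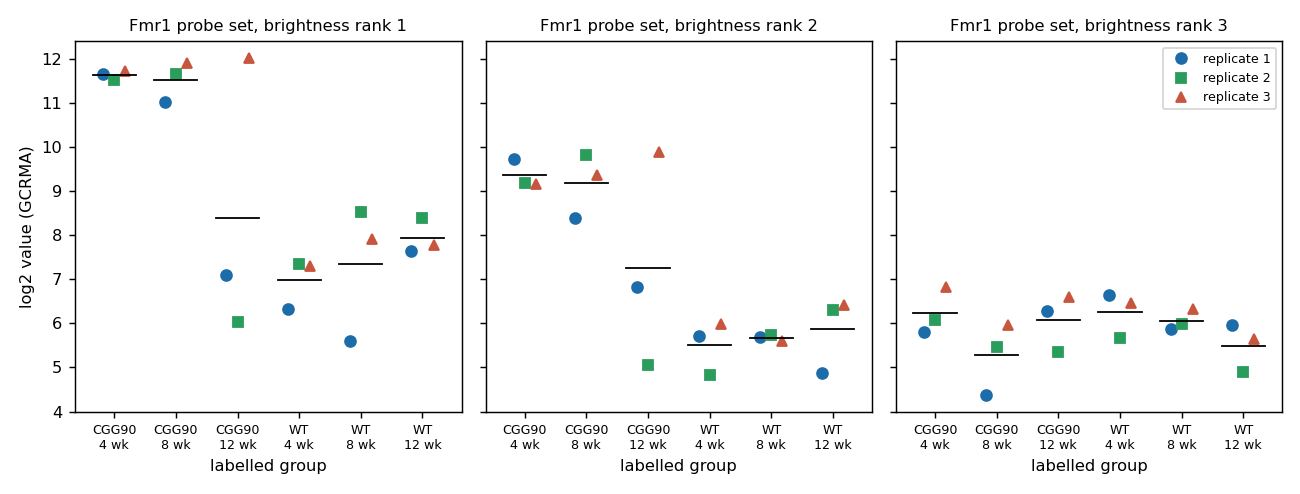
Log2 value (y axis) of the 3 Fmr1 probe sets, one panel each in order of brightness, in all 18 libraries by labelled group (x axis), with symbols for replicates and a bar for the group mean. On the brightest probe set the libraries labelled CGG90 12 weeks replicates 1 and 2 sit at 7.10 and 6.03, far below 12.01 in replicate 3 and 11.52 to 11.72 at 4 weeks.

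Across the tested genes the 12-week CGG90 libraries differed in how closely they resembled other libraries. The Pearson correlations of replicate 3 with the 4-week CGG90 libraries were 0.954, 0.966 and 0.965, against 0.919, 0.931 and 0.940 for replicate 1 and 0.892, 0.902 and 0.912 for replicate 2. Its correlations with wild type were 0.954, 0.973 and 0.957 for the 4-week and 0.970, 0.951 and 0.918 for the 12-week libraries, so its resemblance was not particular to the 4-week CGG90 libraries. It correlated with replicates 1 and 2 at 0.949 and 0.920, and these with each other at 0.911. These are correlations across genes, which are not independent, and they describe the libraries only. Array medians ran from log2 2.56 to 2.72 and upper quartiles from 6.30 to 6.78 over the 18 libraries, and arrays carry no read depth. No immunoprecipitation day held both ages, and a number in the titles also followed age, so age, day and that number cannot be told apart.

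Y-linked genes were near the floor in 1 of the 6 libraries, although every pool is labelled as holding both sexes. Eif2s3y, a translation initiation factor gene on the Y chromosome, read 7.86, 6.71 and 2.43 in the 4-week CGG90 libraries and 7.72, 7.86 and 5.45 at 12 weeks. Kdm5d, a Y-linked histone demethylase, read 6.95, 7.61 and 2.18 at 4 weeks and 7.35, 4.21 and 4.99 at 12 weeks. Both were at the bottom of the array's range in 4-week replicate 3, and lower in 12-week replicate 3 than in replicate 1.

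Purkinje markers were high at both ages. Pcp2 itself, the gene whose promoter drives the tag, read 14.87, 14.81 and 14.82 at 12 weeks and 14.83, 14.83 and 14.65 at 4 weeks, a difference of 0.06 ± 0.18 (SE; limma adjusted p = 0.963). Its ranges overlapped, and the values were near the top of the array's scale. Rpl10a, the ribosomal protein that carries the tag, read 12.52, 12.66 and 12.62 against 12.96, 12.55 and 12.76 (-0.15 ± 0.23, limma adjusted p = 0.908). Over the 15 Purkinje markers tested of 20, the mean log2 value was 12.01, 11.79 and 12.40 at 12 weeks and 12.37, 12.30 and 12.17 at 4 weeks, with overlapping ranges.

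Calb1, which encodes the calcium buffer calbindin, was lower in replicates 1 and 2 and not in replicate 3. It read 13.04, 13.07 and 13.55 at 12 weeks against 13.69, 13.68 and 13.49 at 4 weeks (-0.40 ± 0.23, limma adjusted p = 0.679), and the dimmer Calb1 probe sets that reached above the floor differed by -0.55 and -0.81. With replicate 3 alone at 12 weeks the difference was -0.07. The wild-type difference for Calb1 was -0.39, with ranges that did not overlap. Cacna1g, a T-type calcium channel of Purkinje dendrites, had a similar layout, with 7.02, 7.57 and 8.62 against 9.07, 8.64 and 8.12 (-0.87 ± 0.54, limma adjusted p = 0.709). Without replicates 1 and 2 its difference was 0.01.

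Markers of other cerebellar cells differed more among the 4-week pools than between the ages. The mean over 65 markers of granule cells, glia, microglia, vessels and interneurons was 6.83, 7.75 and 8.95 in the 4-week CGG90 libraries and 7.75, 7.77 and 7.59 at 12 weeks. The wild-type 4-week libraries, prepared on the same 3 days as the CGG90 ones, had the same order, with 6.61, 8.02 and 8.88. Myelin genes were among the lists with a wide spread over the 4-week pools. The 14 oligodendrocyte and myelin markers tested of 17 averaged 7.74, 9.32 and 10.42 at 4 weeks and 8.78, 8.64 and 8.29 at 12 weeks. The 12-week values lay inside the 4-week range.

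Among these myelin markers 13 of 14 had a lower mean at 12 weeks, with a list median of -0.54. Ranges did not overlap for 0 of 14, where 14.8% of all genes tested had ranges apart in either direction. Mog, a myelin surface glycoprotein, read 7.86, 6.62 and 7.59 against 7.54, 8.89 and 10.52 (-1.63 ± 0.99, limma adjusted p = 0.7). Cldn11, the claudin of myelin sheaths, differed by -0.84 ± 0.56. Without 4-week replicate 3 the list had 8 of 14 lower and a median of -0.05, and without 4-week replicate 1 it had 14 of 14 lower and a median of -1.30, so single libraries set its size. The other marker lists had medians of -0.04 for granule cells (7 higher and 7 lower of 14), 0.18 for astrocytes and Bergmann glia (8 and 6 of 14) and -0.14 for oligodendrocyte precursors (3 and 4 of 7). For microglia the median was -0.44 (2 and 4 of 6), for endothelial and mural cells -0.87 (0 and 2 of 2), for cerebellar interneurons 0.29 (7 and 1 of 8), for blood -0.01 (1 and 2 of 3) and for choroid plexus 0.18 (3 and 1 of 4). Where these RNAs move with a gene named below, their part in its difference was not tested gene by gene, although a fit with the marker mean as a covariate was run.

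No gene passed the test of 12 against 4 weeks in the CGG90 libraries. limma, fitted on the 6 group means over all 18 libraries, called 0 of 10068 genes (0%) at an adjusted p of 0.05, and the smallest adjusted p was 0.109. At an unadjusted p under 0.05 it found 823 genes (8.17%), 281 higher (2.79%) and 542 lower (5.38%) at 12 weeks, where a uniform spread of p-values would give 503.4. Wild type gave 0 genes at the adjusted threshold and 890 (8.84%) unadjusted, 260 higher (2.58%) and 630 lower (6.26%). Fits on the same question with array weights called 3 genes, Gpr146, Bace2 and Bod1l, of which Gpr146 and Bace2 passed the filter on dim genes through a CGG90 group where they were high. A fit without any filter on dim genes called 1, Rnf11.

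Leaving out single libraries moved this count. Without replicate 3, the 12-week library with high Fmr1, 7 genes passed. Fmr1 was among them with a difference of -5.07, which is a description only, since the libraries kept are those in which Fmr1 was seen to be low. The others were Gm19500, Khdrbs1, Gpr146, Tefm, Dip2a and Slc35e4. Without wild-type 8-week replicate 2, which enters no mean of this comparison, Bace2 and Gpr146 passed. With a filter of log2 6 in at least 3 libraries 0 of 8267 genes passed and 737 had an unadjusted p under 0.05. With replicate 3 as the only 12-week library 0 genes passed, 106 had an unadjusted p under 0.05, and its spread was then assumed to be that of the other groups.

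The genes with a lower mean at 12 weeks outnumbered those with a higher mean, by a margin that depended on scaling. In the CGG90 libraries 5808 of 10068 genes (57.7%) had a lower mean and the median difference was -0.10, and after quantile normalization these were 51.8% and -0.02. In wild type 59.5% had a lower mean. Differences of at least 1 on the log2 scale were seen for 362 genes higher and 706 lower. With replicate 3 alone at 12 weeks, 47.1% of genes were lower and the median was 0.03, whereas replicates 1 and 2 gave 59.9% and -0.17. Within the groups the median SD over genes was 0.47 at 12 weeks and 0.40 at 4 weeks.

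The ranges of the 3 and 3 libraries did not overlap for 606 genes higher (6.02%) and 885 lower (8.79%) at 12 weeks, 14.8% of all genes tested. Wild type, compared in the same way, gave 509 higher (5.06%) and 990 lower (9.83%), 14.9% in all. Of the genes higher by this rule 89 were shared, which is 14.7% of the CGG90 list and 17.5% of the wild-type list, and of those lower 232 were shared, 26.2% and 23.4%. The wild-type libraries are different mice, but the 4-week libraries of both genotypes were prepared on the same 3 days, and wild-type 12-week replicate 1 on the day of CGG90 12-week replicates 1 and 2. Over all tested genes the age differences of the genotypes correlated with Pearson r of 0.321 and Spearman rho of 0.347, a description across genes that share these days.

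**Figure D2:**
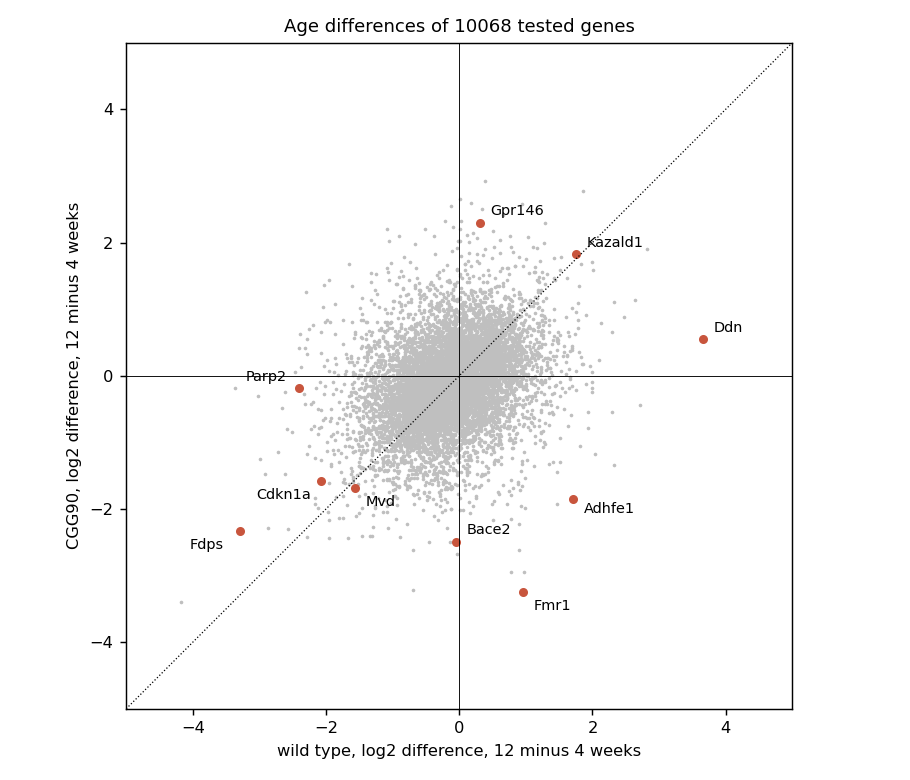
Each point is 1 of 10068 tested genes, with its log2 difference, 12 minus 4 weeks, in wild type (x axis) and in CGG90 (y axis), and the dotted line marks equal differences. Genes with labels are Fmr1, members of the lists and genes named by smallest p, among them Gpr146 and Bace2, which lie far from 0 on the CGG90 axis and near 0 on the wild-type axis, and Kazald1 and Mvd, which lie near the line.

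The 8 genes of smallest p with higher values at 12 weeks included 3 with 4-week means under log2 4, near the floor, namely Gpr146, Bod1l and Cfap161, so the size of their differences is uncertain. Gpr146, an orphan receptor of the G protein-coupled class, read 5.03, 5.74 and 4.50 at 12 weeks against 2.61, 2.64 and 3.11 at 4 weeks. It reached log2 4 in 3 of the 18 libraries, those of CGG90 at 12 weeks, and so passed the filter only through the group where it is high and had to differ. Its test therefore supports nothing by itself. The difference was 2.30 ± 0.35 (limma adjusted p = 0.109), and 1.71 for replicate 3 alone. It was 0.31 in wild type, and the CGG90 mean at 8 weeks was 2.80, close to that at 4 weeks. The remaining Gpr146 probe sets, all dimmer, differed by -0.60, 0.10 and 0.00.

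Bod1l, which protects stalled replication forks, read 5.59, 5.26 and 5.72 against 2.61, 3.32 and 3.73 (2.30 ± 0.41, limma adjusted p = 0.204). Its ranges were also apart in wild type, where the difference was 1.29. Kazald1, a secreted protein with a Kazal-type domain, read 10.38, 10.56 and 10.71 against 8.51, 9.36 and 8.29 (1.83 ± 0.34, limma adjusted p = 0.222). It was bright in every library, its wild-type difference was 1.75, and its CGG90 mean at 8 weeks, 10.53, was already at the 12-week level.

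Ppp1r18, a regulatory subunit of protein phosphatase 1, read 7.01, 6.48 and 6.36 against 4.79, 4.07 and 3.77. Mtfr1, a regulator of mitochondrial fission, read 5.60, 5.39 and 5.68 against 4.17, 4.00 and 4.26. The differences were 2.41 ± 0.48 (limma adjusted p = 0.338) and 1.41 ± 0.31 (0.507), against 0.66 and 0.41 in wild type. Both sets of ranges were apart in CGG90 and overlapped in wild type. A second Mtfr1 probe set differed by 1.06.

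Cfap161, a cilia-associated protein, read 5.14, 7.80 and 6.50 against 3.56, 4.02 and 4.11 (2.58 ± 0.58), and the 12-week libraries spread over more than 2 log2 units. Rnf11, a RING finger protein of ubiquitin ligase complexes, read 12.89, 12.82 and 12.60 against 12.03, 12.07 and 11.76 (0.81 ± 0.19). It was bright and even in all libraries, its 3 other probe sets differed by 1.13, 0.93 and 0.71, and its wild-type difference was 0.78. Brwd1, a bromodomain protein, read 10.63, 10.50 and 9.90 against 9.30, 9.10 and 8.99 (1.22 ± 0.28), with 0.91 in wild type. The limma adjusted p was 0.507 for each of these. The ranges of all 8 genes were apart, where 6.02% of all genes were higher in this way. Replicate 3 alone was therefore also above the 4-week mean, by 0.65 for Rnf11 up to 2.60 for Cfap161. The genes were chosen by p from these same libraries, so this adds no support.

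Among the 8 genes of smallest p with lower values, Bace2 and Mcm6 reached the floor at 12 weeks. Bace2, a protease related to the beta-secretase, read 3.21, 2.58 and 2.49 against 4.75, 5.72 and 5.30 at 4 weeks (-2.49 ± 0.43, limma adjusted p = 0.204). It reached log2 4 in the 3 CGG90 libraries of 4 weeks and in 1 wild-type library of 8 weeks, so it too was tested because of its values in the younger CGG90 group. Its CGG90 mean was 2.72 at 8 weeks, and its wild-type difference was -0.05. The 4-week CGG90 group had the highest Bace2 mean of the 6 groups, and the 4 further Bace2 probe sets, all dimmer, differed by 0.00, -0.08, 0.00 and 0.00. Mcm6, a subunit of the replicative helicase, read 3.10, 2.88 and 3.07 against 6.00, 4.72 and 5.84 (-2.50 ± 0.60, limma adjusted p = 0.563), with -0.45 in wild type. Values this low are near the floor, so the size of either difference is uncertain.

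For Slc35e4, Khdrbs1 and Tefm the low values came mainly from replicates 1 and 2. Slc35e4, a solute carrier of the nucleotide sugar transporter family, read 6.31, 5.95 and 7.72 against 8.54, 9.50 and 7.98 (-2.01 ± 0.45, limma adjusted p = 0.507), and replicate 3 alone differed by -0.96. Khdrbs1, which encodes Sam68, an RNA-binding protein that CGG repeat RNA sequesters, read 8.93, 8.86 and 10.24 against 10.81, 10.59 and 10.74 (-1.37 ± 0.32, limma adjusted p = 0.534). Replicate 3 alone differed by -0.47 for Khdrbs1, and wild type by -0.60 with ranges apart. The 4 other Khdrbs1 probe sets above the floor differed by -0.49, -2.16, -2.07 and -0.41.

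Tefm, a mitochondrial transcription elongation factor, read 5.79, 5.06 and 6.50 against 7.22, 7.32 and 7.00 (-1.40 ± 0.31, limma adjusted p = 0.507), with -0.68 for replicate 3 alone and -0.36 in wild type. Ccdc28b, a modifier of Bardet-Biedl syndrome, read 11.87, 11.55 and 12.35 against 12.82, 12.91 and 13.00 (-0.99 ± 0.22, limma adjusted p = 0.507). Its wild-type difference was -0.93, and its dimmer probe sets differed by -1.17, 0.01 and -0.12. Ybx3, a cold shock domain RNA-binding protein, and Eif3l, a subunit of translation initiation factor 3, had differences of -0.93 ± 0.23 and -1.13 ± 0.28 (limma adjusted p = 0.563 for each). The 3 Ybx3 values at 12 weeks were 10.44, 9.86 and 10.25 against 11.16, 10.84 and 11.36. For Eif3l they were 7.15, 7.42 and 7.91 against 9.07, 8.48 and 8.34. A second Ybx3 probe set, nearly as bright, differed by only -0.32, and a dimmer Eif3l probe set by -1.09. The ranges of all 8 were apart, where 8.79% of all genes were lower in this way. Replicate 3 alone was therefore below the 4-week mean for each. The genes were chosen by p from these same libraries, so this adds no support.

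**Figure D3:**
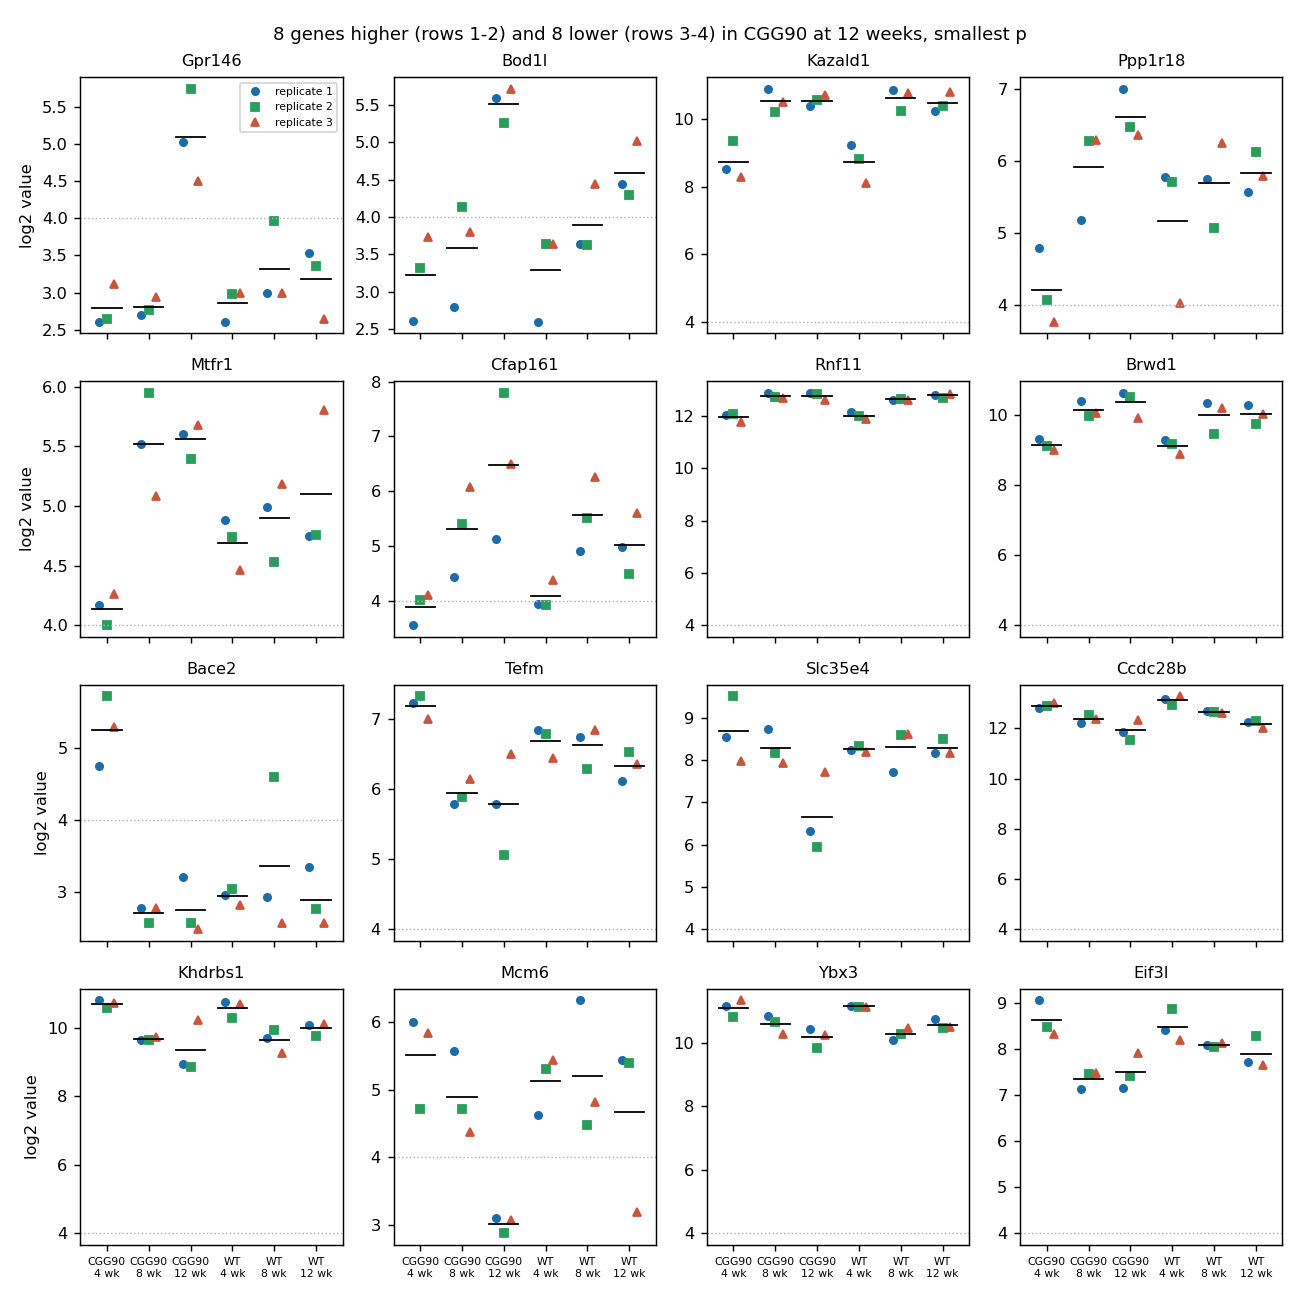
Log2 values (y axis, dotted line at 4, the limit under which values count as near the floor) of the 8 genes of smallest p that were higher and the 8 that were lower at 12 weeks in CGG90, in all 18 libraries by group (x axis), with symbols for replicates and a bar for the mean. Kazald1 and Rnf11 have similar levels in both genotypes at each age. For Gpr146 the 12-week CGG90 values (4.50 to 5.74) stand above the other groups, and for Bace2 the 4-week CGG90 values (4.75 to 5.72) do.

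Proteasome subunits were among the most one-sided of the gene lists. The proteasome degrades ubiquitin-tagged proteins in a core of alpha (Psma) and beta (Psmb) rings, capped by a regulatory particle of ATPases (Psmc) and other subunits (Psmd). Of 34 subunits, all tested, 31 had a lower mean at 12 weeks and 3 a higher one, with a median of -0.43 and a range of -1.06 to 0.27, where the median of all genes was -0.10. None passed singly (limma, smallest adjusted p 0.584), 10 had an unadjusted p under 0.05 and all of those were lower, against 5.38% of all genes. The ranges did not overlap for 15 of 34, all lower, where 8.79% of all genes did so.

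The mean over the 34 subunits was 10.47, 10.58 and 10.93 at 12 weeks and 11.12, 11.10 and 11.08 at 4 weeks. All 3 older libraries were below all 3 younger ones, and the younger ones were nearly equal. The 8-week CGG90 libraries, at 10.50, 10.95 and 10.80, resembled the 12-week ones. Wild type had the same layout, with 10.63, 10.88 and 10.22 at 12 weeks and 11.12, 11.28 and 11.11 at 4 weeks. There 34 of 34 subunits were lower with a median of -0.59, beside 59.5% and -0.13 for all genes in wild type. Replicate 3 alone gave 27 of 34 lower and a median of -0.19, and replicates 1 and 2 gave 30 of 34 and -0.55, so the size of the median differed with the library and its sign did not.

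Means were lower for all but 1 of the 14 core subunits (Psma and Psmb), with ranges apart for 10. They were also lower for 18 of the 20 regulatory ones (Psmc and Psmd), with ranges apart for 5. Of all genes 8.79% were lower with ranges apart, and the difference between the parts was not tested. Psmb1, a beta-ring subunit, read 10.24, 10.67 and 11.09 at 12 weeks against 11.67, 11.38 and 11.47 at 4 weeks (-0.84 ± 0.28). Psmb5, which holds the chymotrypsin-like active site, read 10.25, 10.36 and 10.93 against 11.55, 11.27 and 11.22 (-0.83 ± 0.33). Psma5 of the alpha ring read 10.17, 10.34 and 10.49 against 11.02, 11.30 and 11.04 (-0.79 ± 0.31). In each of these replicate 3 was the highest 12-week library and still below the 4-week range.

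In the regulatory particle, Psmd6 read 9.38, 9.45 and 10.14 against 10.55, 10.65 and 10.40 (-0.88 ± 0.28), and its second probe set differed by -1.25. Psmd13 read 8.61, 7.70 and 8.89 against 9.07, 9.46 and 9.43 (-0.92 ± 0.36). The limma adjusted p was 0.584 for Psmb1, Psmb5, Psma5, Psmd6 and Psmd13, and replicate 3 alone gave -0.41 for Psmb1 and -0.40 for Psmd6. The subunits with a higher mean were Psma3 (0.27 ± 0.19), Psmc5 (0.14 ± 0.22) and Psmd1 (0.14 ± 0.29), and the near-zero ones included Psmd2 (-0.03 ± 0.30) and Psmd14 (-0.05 ± 0.24).

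Cholesterol biosynthesis genes had a median about as low as that of the myelin markers. Neurons and, above all, myelinating glia make brain cholesterol locally, and the enzymes are regulated together by the transcription factor SREBP-2 with the help of the CCAAT-binding factor NF-Y. Of 20 tested genes (of 24 in the list) 17 had a lower mean and 3 a higher one at 12 weeks, the median was -0.56, and the ranges were apart for 6, all lower, where 8.79% of all genes were lower in this way. In wild type 17 were lower, 7 with ranges apart, and the median was -0.88. Of all genes in wild type 59.5% were lower, 9.83% with ranges apart, and the median was -0.13. The mean over the list was 6.87, 7.43 and 7.55 at 12 weeks and 7.46, 7.90 and 8.12 at 4 weeks, with ranges that overlapped. Myelin marker means followed the same order over the 4-week libraries (7.74, 9.32 and 10.42), and their part in the cholesterol values was not tested.

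The 6 genes with separate ranges were Pmvk, Mvd, Idi1, Fdps, Lss and Dhcr7. The proximal promoter sequences that RefSeq (GRCm38.p6) gives for 5 of them are shown with their CCAAT boxes, since these boxes were found in every gene of the list that has an entry. The 250 bases before the start site were searched on both strands for CCAAT, for the sterol regulatory element TCACNCCAC and for the antioxidant response element core TGACNNNGC. Each line runs 5′ to 3′ on the gene's strand and shows the stretch from 15 bases before the first box to 15 bases after the last, shortened where it meets the edge of the window, with CCAAT or its complement ATTGG in capitals. The stretches lie at chr3:89454390-89454424 (plus strand) for Pmvk, chr8:122443430-122443497 (minus) for Mvd, chr13:8885546-8885605 (plus) for Idi1, chr10:76531528-76531562 (plus) for Lss and chr7:143830114-143830184 (plus) for Dhcr7.
Pmvk: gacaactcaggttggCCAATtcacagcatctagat
Mvd: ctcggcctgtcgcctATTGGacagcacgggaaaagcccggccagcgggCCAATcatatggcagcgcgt
Idi1: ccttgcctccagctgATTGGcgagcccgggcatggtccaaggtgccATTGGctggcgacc
Lss: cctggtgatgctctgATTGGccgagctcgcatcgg
Dhcr7: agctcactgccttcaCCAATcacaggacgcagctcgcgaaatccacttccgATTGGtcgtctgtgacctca

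CCAAT was found in all 16 cholesterol genes that have a promoter entry (100%), whether or not their ranges were apart, against 41.0% of the 8228 tested genes with an entry. Counted by window, since a gene can have several, it was in 16 of 19 cholesterol windows (84.2%) and in 35.1% of all windows. The nearest box began 27 bases before the start for Mvd, 14 for Idi1, 49 for Dhcr7, 62 for Lss and 136 for Pmvk. TCACNCCAC was in 1 of the 16 genes (6.25%) and in 1.24% of all, and TGACNNNGC in 3 of 16 (18.8%) and 13.5%. Among 28 proteasome genes with an entry, CCAAT was in 11 (39.3%), TGACNNNGC in 5 (17.9%) and TCACNCCAC in 0 (0%). Matches of different motifs overlapped in 0 windows of either list and in 21 of all windows. A match describes these letters and does not show that a factor binds there.

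Mvd, mevalonate diphosphate decarboxylase, had the smallest p of the list. It read 4.73, 5.44 and 6.32 at 12 weeks against 7.29, 7.04 and 7.24 at 4 weeks (-1.69 ± 0.51, limma adjusted p = 0.584), a dimmer probe set differed by -0.37, and wild type differed by -1.57. Fdps, farnesyl diphosphate synthase, read 3.94, 4.03 and 5.61 against 5.71, 7.94 and 6.91 (-2.33 ± 0.91, limma adjusted p = 0.584), with -3.29 in wild type. In both genes replicates 1 and 2 were the lowest libraries, and replicate 3 was still under the 4-week range. With replicate 3 alone the differences were -0.87 and -1.24.

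Dhcr7, which makes cholesterol in the last step of the pathway, read 7.53, 8.05 and 8.69 against 8.80, 9.19 and 9.22 (-0.98 ± 0.45). Idi1, the isopentenyl diphosphate isomerase, read 10.01, 10.04 and 9.85 against 10.33, 10.92 and 10.94 (-0.76 ± 0.40). Pmvk, phosphomevalonate kinase, read 11.41, 11.53 and 11.75 against 12.19, 11.88 and 11.91 (-0.43 ± 0.22). Lss, lanosterol synthase, read 7.92, 6.05 and 7.93 against 8.23, 8.06 and 8.36 (-0.92 ± 0.87), where 1 low library gives most of the difference. The 3 genes with higher means were Mvk (0.97 ± 0.79), Srebf2 (0.80 ± 0.62), which encodes SREBP-2, and Sqle (0.27 ± 0.71). At 12 weeks Mvk read 4.33, 7.32 and 4.18, and Srebf2 read 4.16, 6.43 and 3.91. Both were near the floor at 4 weeks, and replicate 2 gave most of each difference. For the list as a whole, replicate 3 alone gave 16 of 20 lower and a median of -0.14, and replicates 1 and 2 gave 17 of 20 and -0.78.

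**Figure D4:**
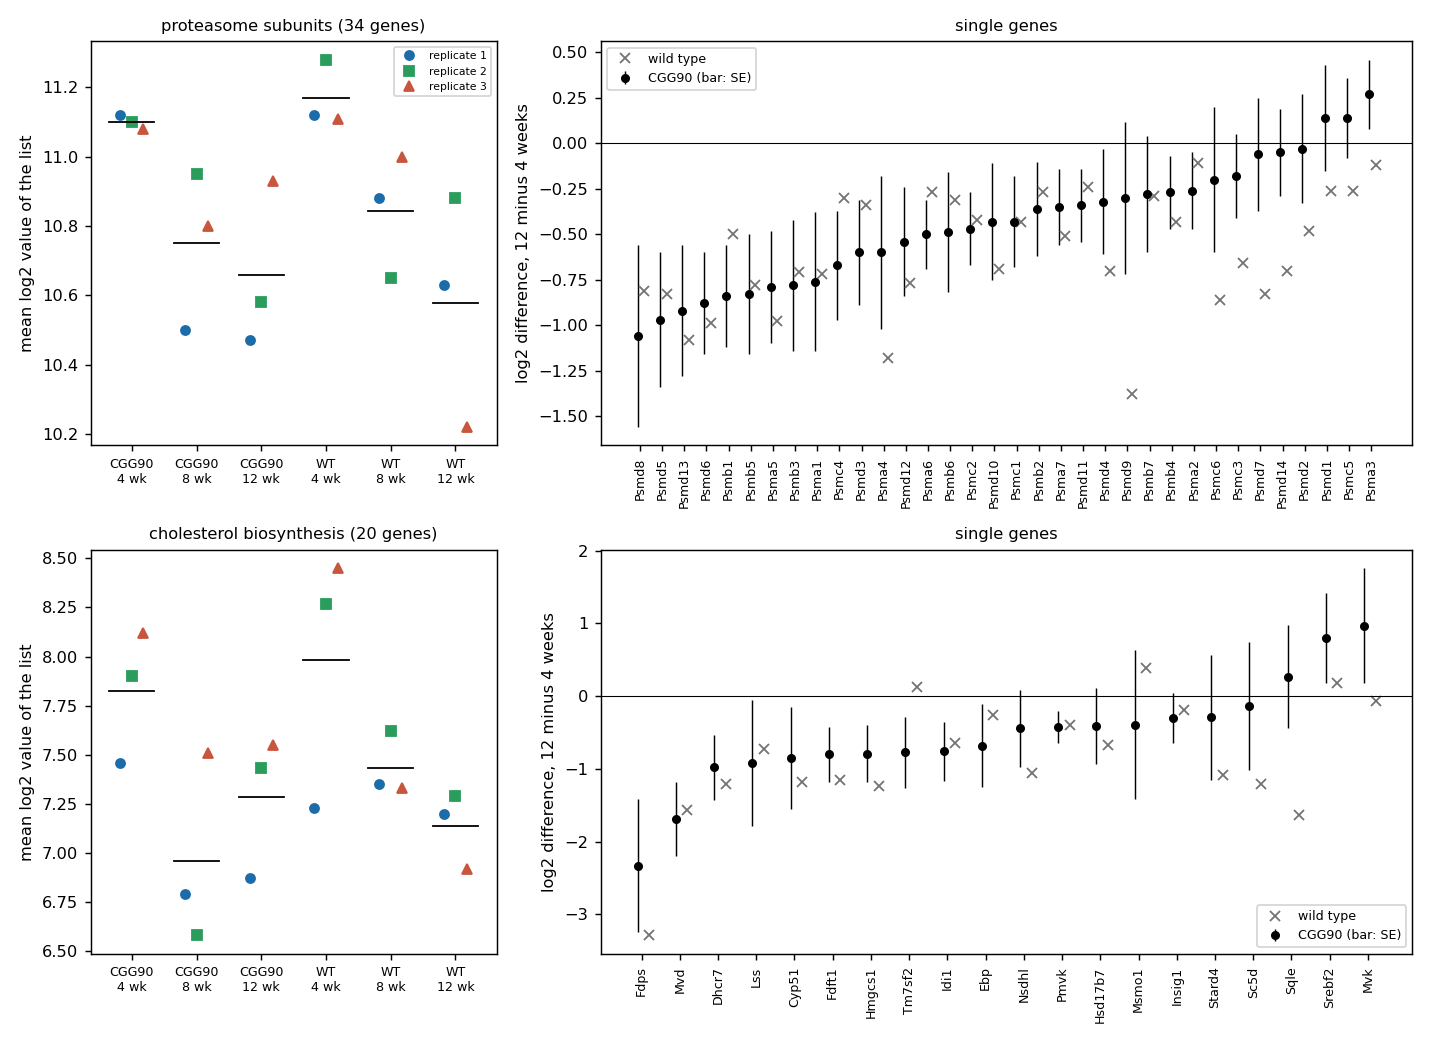
Left, mean log2 value (y axis) of 34 proteasome subunits and of 20 cholesterol biosynthesis genes in all 18 libraries by group (x axis), with a bar for the group mean; right, the log2 difference of each gene, 12 minus 4 weeks, in CGG90 (points with SE bars) and wild type (crosses). The 12-week CGG90 proteasome means (10.47 to 10.93) lie below the 4-week ones (11.08 to 11.12), while the cholesterol means overlap, and most genes of both lists lie below 0 in both genotypes.

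Other groups tied to protein quality and translation were less one-sided. The ribosomal protein list had 41 tested genes of 79, 29 lower and 12 higher, with a median of -0.09 beside -0.10 for all genes. Its ranges were apart for 12 lower and 1 higher, beside 8.79% and 6.02% of all genes, and replicate 3 alone gave 27 of 41 lower and a median of -0.04. Rpl7 read 10.85, 10.82 and 11.24 against 11.71, 11.50 and 11.85 (-0.72 ± 0.22), and Rpl7a differed by -0.69 ± 0.22 (limma adjusted p = 0.584 for both; replicate 3 alone -0.45 for Rpl7). Oxidative phosphorylation, with 70 tested genes, had 47 lower and 23 higher, a median of -0.06 and ranges apart for 16 lower and 2 higher (all genes 8.79% and 6.02%). Replicate 3 alone gave 40 of 70 lower and a median of -0.03. Its members of smallest p were Atp5g1 (-0.73 ± 0.25) of the ATP synthase and Uqcrc2 (-0.69 ± 0.25) of complex III, and a dimmer Atp5g1 probe set differed by 0.57.

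Heat shock proteins gave 14 lower and 11 higher of 25, with a median of -0.10, and replicate 3 alone gave 11 of 25 lower (0.08). In wild type 22 of 25 were lower with a median of -0.40, where 59.5% of all genes were lower with a median of -0.13. Whether a list differed between the genotypes was not tested, here or below. Dnajb1, an HSP40 cochaperone, read 12.24, 12.06 and 12.74 against 12.63, 12.96 and 12.76 (-0.44 ± 0.23), and Hsph1, an HSP110 chaperone, read 12.47, 12.71 and 12.69 against 12.01, 12.40 and 12.18 (0.43 ± 0.23). The unfolded protein response list had 17 lower and 8 higher of 25 and a median of -0.12, and it turned with the library. Replicate 3 alone had 5 of 25 lower and a median of 0.20, and replicates 1 and 2 had 19 of 25 lower and -0.42. Asns, asparagine synthetase, read 9.87, 9.70 and 10.38 against 11.13, 10.82 and 10.43 (-0.81 ± 0.28, limma adjusted p = 0.584). A second Asns probe set, nearly as bright, differed by only -0.23. Herpud1, of endoplasmic reticulum degradation, differed by -1.13 ± 0.41, while its second probe set differed by 0.22.

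Among proteins that bind CGG repeat RNA, 7 of 18 tested were higher and 11 lower, and the median was -0.10. Ranges were apart for 2 in each direction, near the all-gene shares of 6.02% and 8.79%. Replicate 3 alone gave 10 of 18 lower (-0.06). In wild type 16 of 18 were lower with a median of -0.52, where 59.5% of all genes were lower with a median of -0.13. Khdrbs1, described above, was the lowest. Dhx9, an RNA helicase, read 9.79, 8.56 and 8.69 against 7.81, 8.07 and 8.55 (0.87 ± 0.43, limma adjusted p = 0.637), but a probe set nearly as bright differed by -0.56. Tardbp, which encodes TDP-43, read 9.49, 9.05 and 9.54 against 9.45, 10.08 and 9.97 (-0.47 ± 0.31, limma adjusted p = 0.716), with -1.03 in wild type. Its other probe sets differed by -0.84, -0.18, 0.57 and 1.08, and the mean over probe sets by 0.03.

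FMRP and its partners, besides Fmr1, included Caprin1, a stress granule protein, which read 10.79, 9.93 and 10.93 against 11.06, 11.13 and 11.14 (-0.56 ± 0.31, limma adjusted p = 0.662). For Caprin1 replicate 3 alone gave -0.18, and wild type differed by -1.29 with ranges apart. The list of 9, which includes Fmr1, had 6 lower and 3 higher and a median of -0.33. With replicate 3 alone it had 4 of 9 lower and a median of 0.06. In wild type 7 of the 9 were lower with a median of -0.65, where 59.5% of all genes were lower with a median of -0.13. MicroRNA biogenesis, in which DROSHA and DGCR8 are bound by CGG repeats, had 11 lower and 5 higher of 16 and a median of -0.30, against 14 lower and -0.34 in wild type. Adar, an RNA-editing enzyme, read 4.86, 4.03 and 6.43 against 6.78, 7.64 and 7.02 (-2.04 ± 0.64), and Prkra, a Dicer partner, read 6.73, 6.19 and 6.66 against 7.60, 7.33 and 7.61 (-0.99 ± 0.36; limma adjusted p = 0.584 for both). The dimmer Adar probe sets, near the floor, differed by -0.03 and 1.45, and replicate 3 alone gave -0.72. With replicate 3 alone the median of this list was 0.02.

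Lists of Purkinje excitability and synapses had medians from -0.16 to 0.11 with the 6 libraries together, and most of their genes were higher with replicate 3 alone. Voltage-gated and calcium-activated channels had 17 higher and 14 lower of 31 (median 0.11), parallel fibre synapse signalling 10 and 14 of 24 (-0.03), calcium pumps, buffers and stores 9 and 9 of 18 (-0.02), GABA and glycine receptors with the inhibitory synapse 8 and 8 of 16 (-0.02) and synaptic vesicle genes 9 and 14 of 23 (-0.16). With replicate 3 alone, where 47.1% of all genes were lower, 5 of 31 channel genes were lower (median 0.19), 8 of 24 of parallel fibre signalling (0.21), 5 of 18 of calcium handling (0.13), 5 of 16 of the inhibitory synapse (0.13) and 10 of 23 vesicle genes (0.10). Replicates 1 and 2 together gave medians of 0.03, -0.13, -0.13, -0.15 and -0.13. Cacna1a, the P/Q-type channel of spinocerebellar ataxia, read 6.70, 7.30 and 8.11 at 12 weeks against 8.98, 8.44 and 8.58 at 4 weeks (-1.30 ± 0.39, limma adjusted p = 0.584), with 0.00 in wild type and -0.56 for replicate 3 alone. Its ranges were apart. The difference between the genotypes is covered by the interaction test, which called no gene.

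Kcnip4, a regulator of A-type potassium channels, read 12.51, 12.38 and 12.36 against 11.61, 11.74 and 11.90 (0.67 ± 0.26), and its dimmer probe sets differed by 0.53 and 0.39. Gabra4, a GABA-A receptor subunit, read 6.81, 7.47 and 6.98 against 4.39, 6.57 and 5.68 (1.54 ± 0.61; limma adjusted p = 0.584 for both). Both had all older libraries above all younger ones, and replicate 3 alone gave 0.61 and 1.43. Atp2b3, the plasma membrane calcium pump, differed by -1.10 ± 0.77, Pick1 and Nsf of AMPA receptor trafficking by -0.66 ± 0.57 and -0.36 ± 0.32, and Slc32a1, the vesicular GABA transporter, by -0.49 ± 0.32. The vesicle genes Syngr3 and Vamp1 differed by -0.88 ± 0.50 and -0.54 ± 0.39. Second probe sets, nearly as bright, differed by 0.05 for Slc32a1 and by 0.37 for Vamp1, and a dimmer Syngr3 probe set differed by -0.29. Hereditary ataxia genes had 13 lower and 8 higher of 21 and a median of -0.12, while replicate 3 alone gave 7 of 21 lower and 0.08. After Cacna1a the smallest p in this list was that of Afg3l2, a mitochondrial protease (-0.95 ± 0.42, limma adjusted p = 0.604). Afg3l2 differed by -0.13 for replicate 3 alone.

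Neurofilament and axon genes had 12 higher and 10 lower of 22 (median 0.04), and with replicate 3 alone 4 of 22 were lower (0.32), against 13 of 22 (-0.17) with replicates 1 and 2. Sptan1, alpha-II spectrin, read 11.65, 11.40 and 10.71 against 10.10, 10.42 and 10.09 (1.05 ± 0.32), with 1.34 on its second probe set, and Ina, alpha-internexin, read 10.05, 9.99 and 10.31 against 10.92, 10.66 and 10.93 (-0.73 ± 0.24; limma adjusted p = 0.584 for both). Ranges were apart for each, and replicate 3 alone gave 0.50 and -0.53. The other Ina probe sets, nearly as bright, differed by only -0.19 and -0.36. Neuronal immaturity genes had 14 in each direction of 28 (-0.02), and replicate 3 alone gave 19 of 28 lower (-0.13). In wild type 22 were lower with a median of -0.38, where 59.5% of all genes were lower with a median of -0.13. Tubb2a, a tubulin of growing neurons, differed by -0.46 ± 0.20, and its second probe set also by -0.46. Ncam1, a cell adhesion molecule, differed by 1.24 ± 0.49, although its next probe sets differed by -0.23 and -0.63.

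The remaining lists were perineuronal net and matrix (6 higher and 8 lower of 14, median -0.09), fatty acid and lipid synthesis (6 and 14 of 20, -0.40), clock genes (5 and 8 of 13, -0.19), p53 response (5 and 6 of 11, -0.02), immediate early genes (3 and 5 of 8, -0.25) and interferon response (5 and 0 of 5, 0.11). With replicate 3 alone the medians of these lists, in the same order, were 0.10, -0.11, 0.07, 0.21, 0.40 and -0.09. The numbers of genes lower were then 7, 13, 4, 5, 3 and 3. The p53 list had ranges apart for 4 higher and 2 lower of 11 with all 6 libraries, where all genes gave 6.02% and 8.79%. Cdkn1a, the cell cycle inhibitor p21, read 7.07, 6.35 and 7.13 against 8.73, 8.64 and 7.94 (-1.58 ± 0.47), with -2.04 on its second probe set, -1.31 for replicate 3 alone and -2.07 in wild type. Ccng1, cyclin G1, read 10.23, 10.59 and 10.21 against 9.37, 9.48 and 9.71 (0.82 ± 0.26; limma adjusted p = 0.584 for both).

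In the lipid list Ugcg, which makes glucosylceramide, differed by 0.84 ± 0.37, while its other probe sets above the floor differed by 0.13 and 0.12, and Acaca, acetyl-CoA carboxylase, by -0.43 ± 0.25. Nr1d2, the clock repressor REV-ERB beta, read 9.94, 10.39 and 9.75 against 9.23, 8.96 and 9.51 (0.79 ± 0.28, limma adjusted p = 0.584), with 0.59 in wild type and 0.51 for replicate 3 alone. Nfil3 differed by -0.85 ± 0.41, and by -0.09 for replicate 3 alone. Nid1 (-1.95 ± 0.76) and Vcan (2.20 ± 1.24) of the matrix were near the floor in most libraries.

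**Figure D5:**
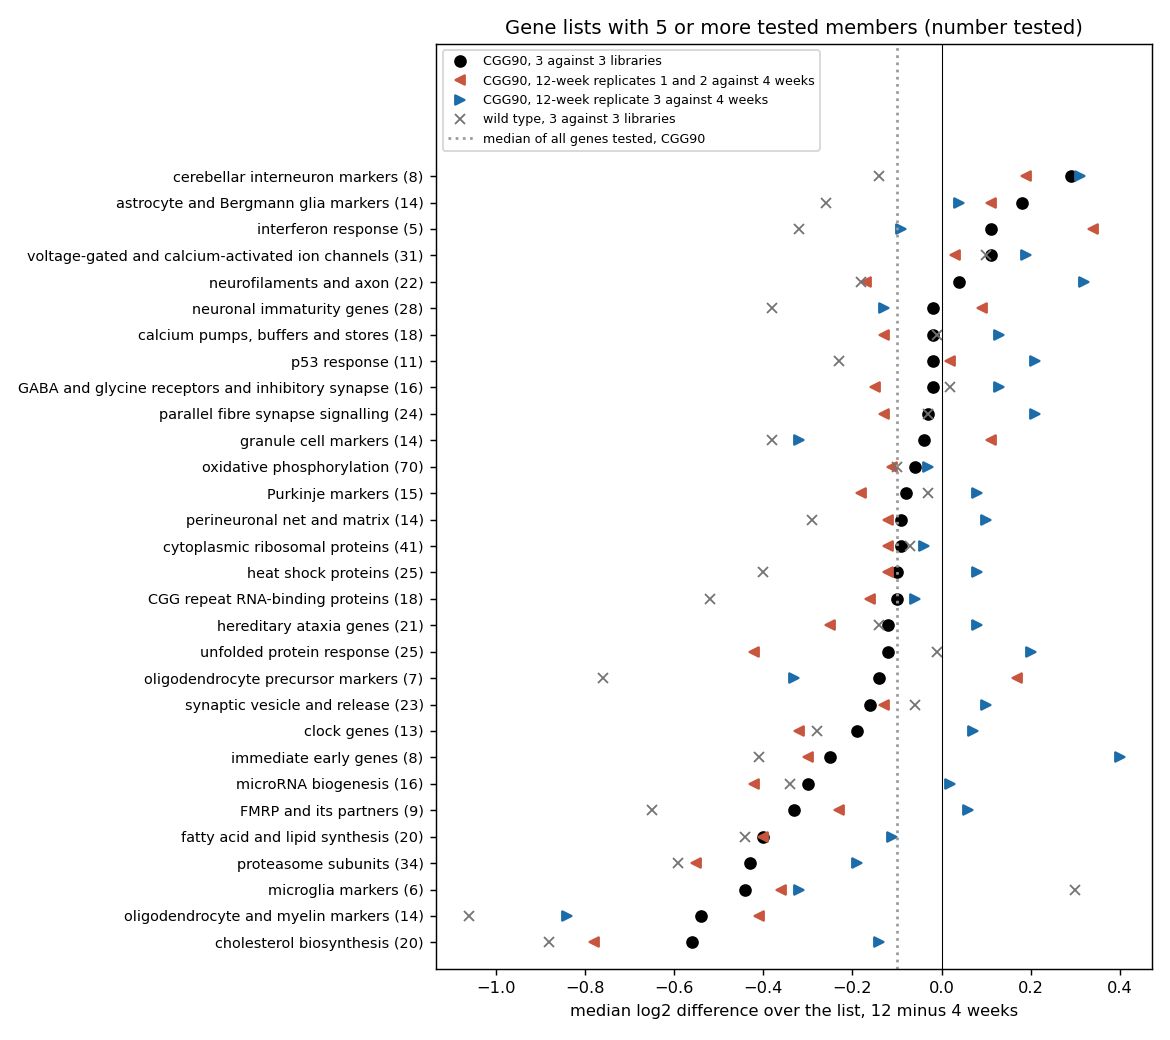
Median log2 difference, 12 minus 4 weeks (x axis), of each gene list with 5 or more tested members (y axis, number tested in brackets) in CGG90 with all 6 libraries, with 12-week replicates 1 and 2, with replicate 3, and in wild type; the dotted line is the median of all genes. The cholesterol and proteasome medians are below 0 for every set of libraries (-0.14 to -0.88 and -0.19 to -0.59), while the median of the unfolded protein response is at -0.42 with replicates 1 and 2 and at 0.20 with replicate 3.

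No age difference was shown to depend on genotype. The interaction in limma, the CGG90 difference minus the wild-type difference, called 0 of 10068 genes (0%), its smallest adjusted p was 1 after rounding, and 266 genes (2.64%) had an unadjusted p under 0.05, 145 with a higher (1.44%) and 121 with a lower (1.2%) difference in CGG90. Fmr1 had an interaction of -4.20 ± 1.58, and without the libraries labelled CGG90 12 weeks replicates 1 and 2 its CGG90 difference was 0.38. The positive interactions of smallest p were those of Morc4 (2.82 ± 0.66), Gpr146 (1.98 ± 0.50), Tarsl2 (2.30 ± 0.56), Gpatch11 (2.74 ± 0.67) and Parp2 (2.21 ± 0.56), and the CGG90 difference was 0.84 for Morc4 and -0.19 for Parp2, a DNA repair enzyme, so that the wild-type differences of -1.98 and -2.40 gave most of these values.

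The negative ones were those of Adhfe1 (-3.55 ± 0.89), Bace2 (-2.44 ± 0.61), Miga2 (-1.55 ± 0.43), Tmem74b (-1.37 ± 0.42) and Slc35e4 (-2.03 ± 0.64). The CGG90 difference of Tmem74b was -0.09, so that its wild-type difference of 1.28 gave most of its value. Adhfe1, an iron-containing alcohol dehydrogenase, read 4.60, 4.29 and 4.66 at 12 weeks against 6.65, 5.99 and 6.44 at 4 weeks in CGG90, a difference of -1.85 ± 0.63 that was nearly equal in the 3 older libraries. In wild type it differed by 1.71, with overlapping ranges (7.63, 5.68 and 8.23 at 12 weeks against 5.23, 5.05 and 6.14 at 4 weeks). Miga2, a mitochondrial fusion protein, read 8.54, 8.94 and 9.75 against 10.32, 10.23 and 9.75 (-1.02 ± 0.30), with its other probe sets at -1.01, -1.01 and -0.68 and wild type at 0.53. In Miga2 the low values were those of replicates 1 and 2. The limma adjusted p of these interactions was 1 after rounding.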

How the data were processed

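The deposited table holds log2 expression values that the authors made from 18 one-colour short-oligonucleotide arrays, and the submitters' processing notes name GCRMA, with no version. Of 45101 probe sets, 34958 carry a single gene symbol in the platform annotation, 932 several and 9211 none, and 34754 were matched by gene ID to the RefSeq gene table. Each of 18194 genes was represented by its probe set of greatest mean across the 18 libraries, and 10068 genes that reached log2 4 in at least 3 of the 18 libraries were tested. Values near that limit are close to background, so their differences are uncertain.

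limma 3.58.1 (R 4.3.3) was fitted to 6 group means over the 18 libraries, with eBayes and two-sided p-values adjusted by Benjamini-Hochberg over all 10068 genes at a threshold of 0.05. No immunoprecipitation day held both ages. Replicate numbers are shared between the groups. Across the ages, residuals of same-numbered CGG90 libraries at 12 and 4 weeks correlated at -0.0313, -0.0368 and -0.126, so no pairing was used. At 4 weeks, same-numbered libraries of the genotypes shared a day. The main fit left this out, and fits with day as a block were run as alternatives.

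Named genes were Fmr1, Pcp2, Rpl10a, Calb1 and Tardbp, 8 genes a direction by p, the 2 of smallest p in each of 34 gene lists, and the 5 of smallest interaction p in each direction, besides further members of the proteasome and cholesterol lists, which were chosen after their values were seen. Of 760 list entries 579 were tested, and lists were described by counts and medians without a test. The comparison and the lists were chosen with earlier results of these data known. Fits were checked on simulated data. Alternatives changed the filter, the probe set rule, normalization, weights, the variance prior, the day, the replicate number, a marker covariate and the libraries included. The number of arrays limits the precision.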

Additional observations from a re-analysis of the deposited data

How the results depend on the processing

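The count of 0 genes for CGG90 at 12 against 4 weeks became 1 with no filter and 3 with array weights, and ranged from 0 to 7 over the 18 fits that left out a library (7 without CGG90 12 weeks replicate 3). At an unadjusted p under 0.05 those fits gave 414 to 1322 genes. With the replicate number as a block it was 0 (731 unadjusted), and the block called no gene in any contrast. The random day block gave 0 (709), the 6 libraries alone 0 (703), the marker covariate 0 (1124) and all 19034 probe sets passing the filter 0 (1451). The wild-type count of 0 became 7 with no filter, 4 with array weights and 3 with a variance trend, and ranged from 0 to 4 without single libraries. The interaction stayed at 0 in every fit, and with day as a fixed block 822 genes had an unadjusted p under 0.05. In that fit the genotypes at 12 weeks are compared only within the day that held both. Its 12-week libraries were wild-type replicate 1 and CGG90 replicates 1 and 2, the CGG90 libraries of low Fmr1.

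Without both libraries of low Fmr1 the difference turned to 0.38 for Fmr1, 0.01 for Cacna1g, 0.19 for Itm2a, -1.10 for Alas2, -0.35 for Vcan and -0.22 for Eif2s3y. With the mean over probe sets it turned to 0.03 for Tardbp, 0.14 for Itm2a, -0.04 for Ncam1 and 0.01 for Kdm5d. Array weights gave 0.70 for Itm2a, -0.93 for Alas2 and -0.01 for Stat2, and the marker covariate 0.12 for Itm2a. Over the fits without single libraries the sign was not fixed for Itm2a (-0.82 to 0.81), Alas2 (-1.10 to 0.83), Ttr (-0.27 to 0.71), Clic6 (-0.16 to 0.73), Eif2s3y (-0.28 to 2.44) and Kdm5d (-1.76 to 0.95). The cause was not tested. Proteasome and cholesterol medians stayed below 0 under each alternative tried for the lists (-0.19 to -0.55 and -0.14 to -0.82). The fixed day block, all probe sets and the lists under quantile normalization were alternatives chosen after seeing the data.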
